A study of Mus musculus with 2 samples.

Results

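Immediate early genes are switched on by a stimulus without new protein synthesis, and heat-shock genes are switched on when proteins unfold. Out of 30084 genes in the table, a set of 33 such genes was followed, all of them measured. They were chosen by name, with earlier results of these data known. Of these, 29 are early genes and 4 are heat-shock genes, and the subsets are given apart because digesting a tissue into single cells can induce them. The data are single-cell RNA sequencing of the stromal vascular fraction of epididymal fat, which is what remains of minced, Liberase-digested fat without its adipocytes. Cells came from Mincle KO and WT male mice on the C57BL/6J background after 15 weeks of high-fat diet; Mincle is a pattern-recognition lectin found on macrophages. Suspensions carried hashtag antibodies and were pooled into 1 transcript library. The labels used here do not pair a hashtag with a genotype, so Mincle KO and WT cells were not compared, and the 4 hashtags, A0309 to A0312, are not replicates of a group.

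Most early-gene products are transcription factors: AP-1 subunits of the FOS, JUN, ATF and MAF families, EGR zinc-finger factors, NR4A orphan nuclear receptors and KLF factors. Others damp the response, as DUSP phosphatases do on MAP kinases, ZFP36 proteins on AU-rich mRNAs and the product of Nfkbia on NF-kappaB. Heat-shock factor binds repeats of the letters nGAAn and drives HSP70 (Hspa1a and Hspa1b), its HSP40 partner (Dnajb1) and its exchange factor HSP110 (Hsph1).

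The upstream bases of 4 members are shown, because Hspa1a and Hspa1b are near copies of each other, Hsph1 was distributed unlike the other heat-shock genes, and Fos is the archetype of the early set. Each is the 250 bases before the RefSeq start on GRCm38.p6, 5′ to 3′ on the gene's strand. Capitals mark a heat-shock element (GAANNTTC or TTCNNGAA, both strands) in the first 3 and the TATA box (TATAAA, gene strand only) in Fos. In the order printed they lie at chr17:34972157-34972406 (minus), chr17:34959239-34959488 (minus), chr5:149636337-149636586 (minus) and chr12:85473640-85473889 (plus).
Hspa1a: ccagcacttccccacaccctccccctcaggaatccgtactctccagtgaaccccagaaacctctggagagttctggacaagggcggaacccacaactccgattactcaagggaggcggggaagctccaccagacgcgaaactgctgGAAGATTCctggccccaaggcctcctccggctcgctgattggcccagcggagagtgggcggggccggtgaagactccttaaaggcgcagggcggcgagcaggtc
Hspa1b: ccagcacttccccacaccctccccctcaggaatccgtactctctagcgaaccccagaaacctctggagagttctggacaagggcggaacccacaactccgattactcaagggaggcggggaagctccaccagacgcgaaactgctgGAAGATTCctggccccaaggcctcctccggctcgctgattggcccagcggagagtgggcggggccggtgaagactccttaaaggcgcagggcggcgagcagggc
Hsph1: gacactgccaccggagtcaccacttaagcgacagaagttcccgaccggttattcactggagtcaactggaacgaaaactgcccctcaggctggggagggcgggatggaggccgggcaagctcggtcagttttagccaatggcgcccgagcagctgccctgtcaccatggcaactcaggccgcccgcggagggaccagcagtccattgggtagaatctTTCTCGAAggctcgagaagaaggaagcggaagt
Fos: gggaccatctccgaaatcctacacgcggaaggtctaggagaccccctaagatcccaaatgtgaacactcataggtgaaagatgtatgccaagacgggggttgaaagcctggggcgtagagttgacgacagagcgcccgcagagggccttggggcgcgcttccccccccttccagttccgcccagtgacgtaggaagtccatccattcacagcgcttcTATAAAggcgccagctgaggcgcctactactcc
The Hspa1a and Hspa1b windows differed at 3 of 250 bases. Their longest open reading frames were 99.6% identical over aligned bases, so counts of either gene may be uncertain and their sum is given too. The transcripts outside these frames were not compared, and whether counts of either gene were given to the other was not tested. Motifs were counted in the first window listed for each gene. Of 27025 such windows, GAANNTTC stood in 6.78% and TTCNNGAA in 7.11%; of the 29 members matched in the table, 4 held the first (Fosl2, Jun, Hspa1a and Hspa1b) and 1 the second (Hsph1). A further window of Egr2, which has several starts in the table, also held TTCNNGAA. TATAAA stood in 8.12% of the windows and in 1 member, Fos. These are matches of letters only.

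The library held 651658017 counts in 15741 cells, and 15192 cells with a single hashtag in the authors' call passed the filters. Clusters made without the 33 members gave 7 named classes: 3402 fibroblast-like, 236 mural-like (pericytes and smooth muscle), 1097 endothelial-like, 8061 macrophage-like, 721 monocyte-like, 176 dendritic-cell-like and 404 T- or NK-cell-like cells. The monocyte-like clusters also carried 7 of 8 macrophage markers. In that class the macrophage markers summed to 6341 CPM, above the 2871 CPM of its own 8 markers. Its larger cluster, 571 cells led by Retnla and Ear2, met 3 monocyte markers, Ccr2, F13a1 and Fn1. The class held 208 cells at Leiden resolution 2.0 and 1039 under a stricter hashtag rule. It is thus not cleanly parted from macrophage-like cells. Summed macrophage markers (8 genes) reached 3033 CPM in T- or NK-cell-like cells, against 9088 CPM in macrophage-like cells and 3101 CPM for the T- and NK-cell markers (10 genes) of those lymphoid cells. In dendritic-cell-like cells macrophage markers reached 1801 CPM, above the 1149.8 CPM of their own 9 markers. Fibroblast markers (7 genes) reached 5488 CPM in mural-like cells, against 45068 CPM in fibroblast-like cells, and mural markers (7 genes) 1629.6 CPM in endothelial-like cells, against 15840.5 CPM in mural-like cells. The part of these markers in the values of the members was not tested. Mast-cell markers (5 genes) summed to 470.0 CPM in T- or NK-cell-like cells, between 17.6 and 2656 CPM over the hashtags. Median counts per cell lay between 10493 in T- or NK-cell-like and 41207 in macrophage-like cells. Levels are CPM, the summed counts of a gene in a class over all counts of that class on the usual CPM scale. With 1 library there is no test: a member is called when the log2 ratio of CPM + 1, the class over the mean of the other 6 classes, reaches 1 in size, with the same sign, both over all cells and within each hashtag that holds 20 cells or more. Hashtag values are given in the order A0309, A0310, A0311, A0312.

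Macrophage-like cells held the lowest level of 12 of the 33 members, a count for which no share of all genes was computed. There 13 members were called lower and 0 higher. Across all genes at 5 CPM or more, 19.5% were called lower and 3.57% higher in that comparison, and the median log2 ratio was -0.72 over the members and -0.31 over all genes. The 13 were Fosl2, Jun, Egr1, Egr3, Nr4a1, Nr4a2, Nr4a3, Ier2, Dusp2, Dusp5, Btg2, Hspa1b and Dnajb1. Very high classes raise the mean that a class is set against, so a lower call is not always a lowest level. Dusp2 and Dusp5 were higher in macrophage-like than in endothelial-, mural- and fibroblast-like cells. Jun, Egr1, Nr4a2 and Hspa1b were not lowest in macrophage-like cells either. Fibroblast-like cells had 4 members called higher (Egr1, Klf4, Hspa1b and Dnajb1), against 9.9% of all genes. There 6 were lower (Nr4a2, Nr4a3, Ier5, Dusp2, Dusp5 and Nfkbia), against 16.6% of all genes. Both counts lie near those shares. In mural-like cells 4 were higher (Jun, Rhob, Hspa1a, Hspa1b; 7.93%) and 4 lower (Nr4a2, Dusp2, Dusp5, Zfp36l2; 8.29%). T- or NK-cell-like cells had 6 higher (Fosl2, Nr4a2, Nr4a3, Dusp2, Dusp5, Zfp36l2; 4.57%) and 2 lower (Egr1, Hspa1a; 11.1%), or 5 lower without A0311. Dendritic-cell-like cells had 2 higher (Egr3 and Nr4a2, 3.21%) and 4 lower (Jun, Egr1, Cebpb and Rhob, 14.4%), the latter near the share of all genes. Endothelial-like cells had 0 higher (8.33%) and 5 lower (Egr2, Nr4a2, Nr4a3, Dusp5, Zfp36l2; 9.96%), and monocyte-like cells had 0 in either direction (2.33% higher and 14.7% lower over all genes), or 1 lower without A0312. In all, 21 members were called in at least 1 class, and the other 12 were Fos, Fosb, Junb, Jund, Atf3, Maff, Klf2, Klf6, Ier3, Dusp1, Zfp36 and Hsph1.

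**Figure D1:**
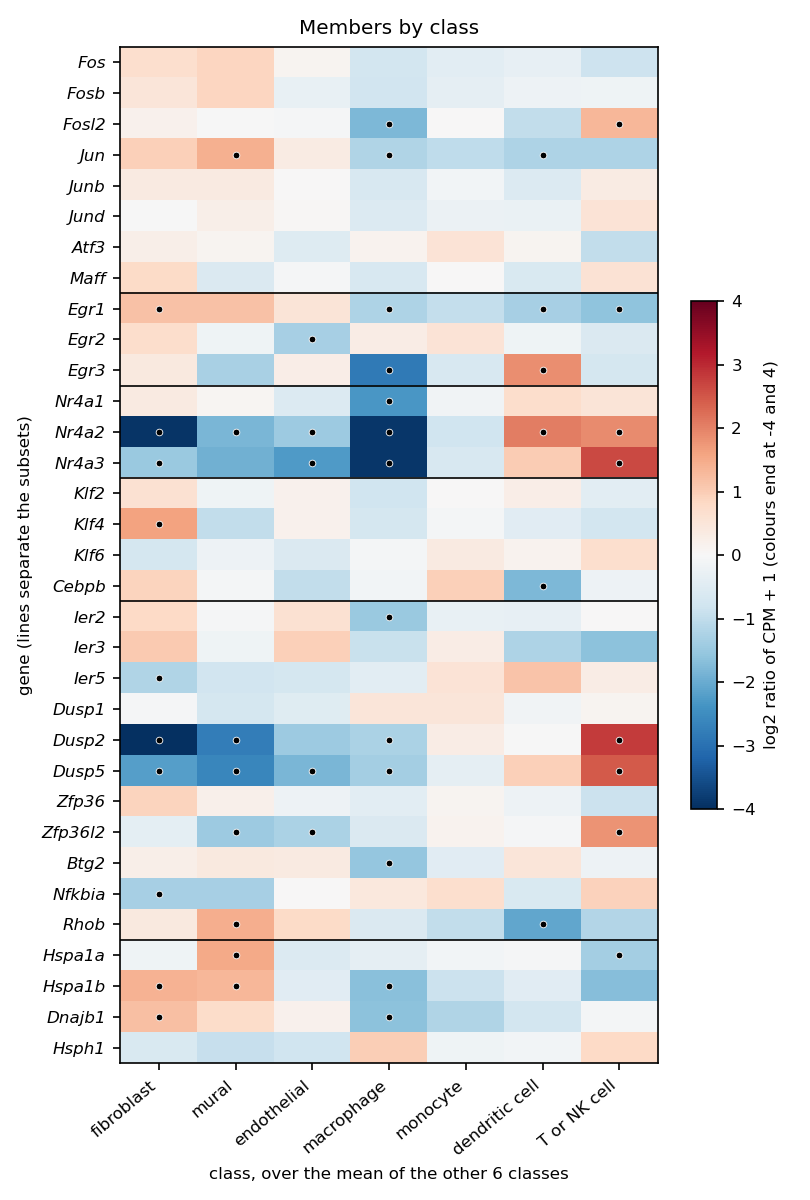
Log2 ratio of CPM + 1 of each member (rows) in each class over the mean of the other 6 classes (columns); dots mark calls. Macrophage-like cells show 13 dots, all on lower values, and T- or NK-cell-like cells show 6 on higher values.

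Among the AP-1 factors, Fos and Fosb were highest in mural-like cells in all 4 hashtags without a call, while Fosl2 was highest in T- or NK-cell-like cells. Fos (chr12:85473890-85477273) stood at 5608 CPM in mural-like, 5098 CPM in fibroblast-like, 2235 CPM in macrophage-like and 2091 CPM in T- or NK-cell-like cells. Fosb stood at 1916 CPM in mural-like and 747 CPM in macrophage-like cells, and no hashtag of another class reached either end. The FOS partner Jun (chr4:95049034-95052222) had 3471, 4024, 3162 and 3065 CPM in mural-like cells, against a mean of 1272 CPM in the other classes (log2 ratio 1.42). No mural-like hashtag overlapped those of any other class for Jun. In macrophage-like cells Jun had 711, 744, 737 and 791 CPM, against 1715 CPM (log2 ratio -1.19). In dendritic-cell-like cells Jun had 787, 687, 622 and 789 CPM, against 1719 CPM (-1.23). The leukocyte classes overlapped each other for Jun. The macrophage call ended on thinning every cell to the same number of counts (-0.92) and on averaging cell by cell (-0.91). It also ended under the stricter hashtag rule (-0.72), but that rule left no mural-like class, the highest for Jun, in the mean. The 2 ratios of Jun are thus not over the same classes. Fosl2 (chr5:32135801-32157842), which encodes FRA2, had 259, 311.8, 255 and 170.0 CPM in T- or NK-cell-like cells, against 90.1 CPM elsewhere (1.33). In macrophage-like cells Fosl2 had 35.2, 32.7, 35.7 and 35.5 CPM, against 122 CPM (-1.78). Every T- or NK-cell-like hashtag lay above those of the other classes, although a pseudocount of 5 ended that call (1.29). Junb, Jund, Atf3 and Maff differed by 1.85 to 2.52 times between their highest and lowest class, with Jund highest in T- or NK-cell-like and Atf3 highest in monocyte-like cells in all 4 hashtags.

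The EGR factors each had a distribution of their own. Egr1 (chr18:34859823-34864984), a target of serum response factor, had 2235, 2356, 2201 and 2326 CPM in fibroblast-like cells, against 1009 CPM in the other classes (log2 ratio 1.18). Mural-like cells were at 2288 CPM, uncalled because 1 hashtag stood at 0.97. Egr1 was lower in macrophage-like cells, at 443, 523, 565 and 620.2 CPM, against 1298 CPM (-1.23), and in T- or NK-cell-like cells, at 286, 549.8, 474 and 439.7 CPM, against 1318 CPM (-1.61). It was lower too in dendritic-cell-like cells, at 558, 542, 342 and 558 CPM, against 1304 CPM (-1.34). All hashtags of the leukocyte classes lay below all those of the fibroblast-, mural- and endothelial-like cells. The macrophage call ended on thinning (-0.87), and the fibroblast call when clusters led by another class were kept (1.03). Egr3 (chr14:70077203-70082614), a relative known from lymphocytes and nerve, was highest in dendritic-cell-like cells, at 132, 121, 91.7 and 131 CPM, against 32.5 CPM elsewhere (1.87). Macrophage-like cells had 5.20, 6.21, 6.13 and 7.53 CPM of Egr3, against 51.6 CPM (-2.82). Neither class overlapped another one for Egr3. Egr2 (chr10:67535475-67542188), a factor of myelination, was called lower in endothelial-like cells, at 27.0, 29.4, 31.6 and 26.1 CPM, against 73.7 CPM, below every other hashtag, but a pseudocount of 5 ended the call (-1.23).

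The NR4A receptors, which act without a known physiological ligand, were all called lower in macrophage-like cells. Nr4a2 (chr2:57106830-57124003) had 663, 636, 549 and 424 CPM in dendritic-cell-like cells, against 137 CPM elsewhere (2.05). In T- or NK-cell-like cells Nr4a2 had 491, 532, 683 and 487 CPM, against 143 CPM (1.88). These classes overlapped each other, and both lay above every hashtag of the rest. Fibroblast-like cells had 8.82, 18.7, 15.8 and 12 CPM of Nr4a2, against 229 CPM (-3.93), and macrophage-like cells had 16.4, 12.6, 15.0 and 14.4 CPM, against 229 CPM (-3.89). It was also lower in mural-like cells (23.6, 53.2, 108 and 56.0 CPM, against 221 CPM) and in endothelial-like cells (43.9, 109.9, 83.3 and 80.5 CPM, against 218 CPM). Nr4a2 thus parted the lymphoid and dendritic classes from all others, with monocyte-like cells between them at 122 CPM. Nr4a3 (chr4:48045153-48086447) had 324, 184, 212 and 166 CPM in T- or NK-cell-like cells, against 33.5 CPM elsewhere (2.63), above every other hashtag. It was lower in macrophage-like cells (3.72, 3.04, 3.37 and 4.25 CPM, against 68.2 CPM), fibroblast-like cells (20.9, 24.6, 19.7 and 25.2 CPM, against 65.0 CPM) and endothelial-like cells (11, 13, 15.1 and 12.4 CPM, against 66.6 CPM). Nr4a1 (chr15:101254269-101274795), which encodes NUR77, was called in macrophage-like cells alone, at 79.9, 92.4, 104 and 103 CPM, against 489 CPM (-2.33), below every other hashtag.

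Klf4 (chr4:55527143-55532466), a Krüppel-like factor of stem and differentiating cells, had 1816, 1864, 1846 and 2038 CPM in fibroblast-like cells, against 624 CPM elsewhere (log2 ratio 1.59). Every fibroblast-like hashtag exceeded those of the other classes, of which endothelial-like cells came next at 888 CPM. Klf2, a shear-stress factor of endothelium, was at 909 CPM in fibroblast-like and 711 CPM in endothelial-like cells and uncalled, and Klf6 was at 1243 CPM in T- or NK-cell-like cells, its highest class. Cebpb (chr2:167688915-167690418), a factor of adipogenesis and of myeloid cells, was lower in dendritic-cell-like cells, at 35.8, 31.9, 37.3 and 33.4 CPM, against 122 CPM (-1.79). Those 4 values lay below every other hashtag.

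**Figure D2:**
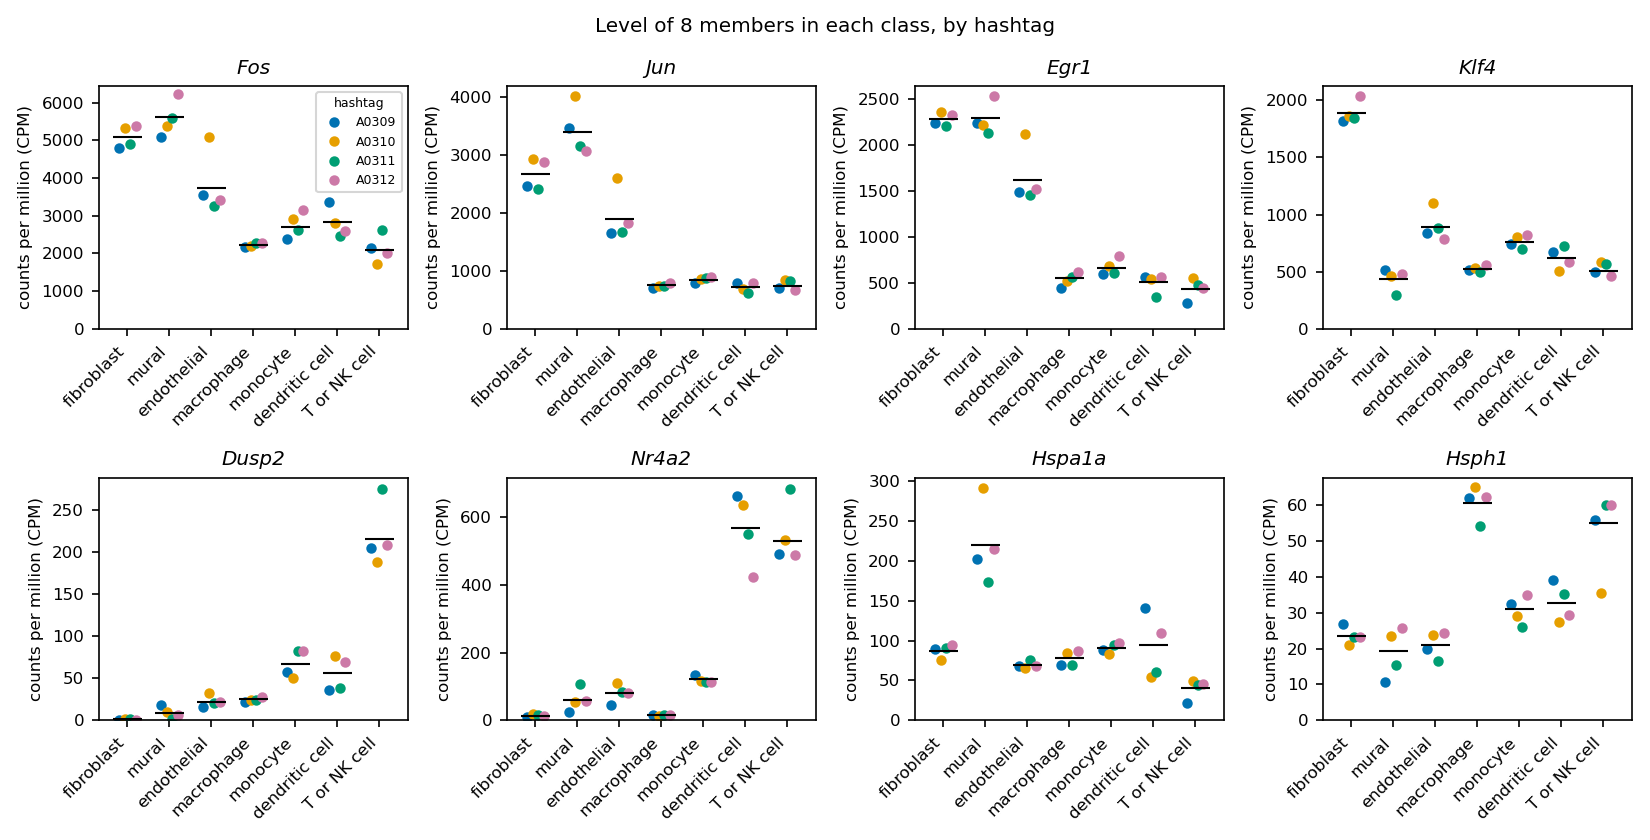
CPM of 8 members in each class; points are hashtags and black lines the pooled class, and each vertical axis starts at 0. Fos, Jun and Egr1 are high at the stromal end and Dusp2 and Nr4a2 at the lymphoid end, while Hsph1 is highest in macrophage-like cells (60.8 CPM).

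Of the feedback genes, the phosphatase Dusp2 (chr2:127336159-127338376), known in lymphocytes as PAC-1, spanned the widest range of the 33 members. T- or NK-cell-like cells had 204, 188, 274 and 208 CPM, against 30.0 CPM elsewhere (2.80), and 56.2% of them held a count. Fibroblast-like cells had 0.949, 1.29, 1.59 and 0.897 CPM, from 153 counts in all, against 65.6 CPM (-4.93), with a count in 2.32% of them at a median depth of 35510.5 counts per cell. The T- or NK-cell-like hashtags overlapped no other class. Dusp2 was also lower in mural-like cells (18.2, 10.2, 0.973 and 6.68 CPM, against 64.3 CPM) and macrophage-like cells (21.8, 24.1, 24.6 and 27.6 CPM, against 61.6 CPM). Dusp5 (chr19:53529109-53542431), a nuclear ERK phosphatase, had 627, 563, 588 and 435 CPM in T- or NK-cell-like cells, against 96.0 CPM (2.44), again above every other hashtag. It was lower in mural-like (32.1, 48.0, 16.5 and 19.2 CPM, against 179 CPM), fibroblast-like (35.2, 38.8, 38.8 and 39.8 CPM, against 177 CPM), endothelial-like (21.3, 62.5, 51.1 and 58.5 CPM, against 175 CPM) and macrophage-like cells (70.0, 75.8, 64.0 and 60.2 CPM, against 172 CPM). Dusp1, a phosphatase of p38 and JNK, differed by 2.03 times between its highest and lowest class. The mRNA-decay gene Zfp36l2 (chr17:84183931-84187947) had 1444, 1252, 1448 and 1286 CPM in T- or NK-cell-like cells, against 384 CPM (1.80), with no overlap with another class. It was lower in mural-like cells (168, 271, 214 and 180.5 CPM, against 573 CPM) and endothelial-like cells (269, 281, 223 and 198 CPM, against 568 CPM). Its relative Zfp36 was highest in fibroblast-like cells instead (2017 CPM, against 1079 CPM) and uncalled.

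Ier2 (chr8:84661331-84662852) was lower in macrophage-like cells, at 119, 131, 138 and 141 CPM, against 375 CPM, and so was the antiproliferative Btg2 (chr1:134075170-134079120), at 214, 236, 244 and 276 CPM, against 723 CPM. Neither gene's macrophage-like hashtags overlapped another class. Ier5 (chr1:155096361-155099636) was lower in fibroblast-like cells, at 115, 97.2, 98.1 and 110.3 CPM, against 242 CPM, and so was Nfkbia (chr12:55489410-55492647), at 263, 251, 252 and 275 CPM, against 648 CPM. Nfkbia was lowest in mural-like cells, at 257 CPM with hashtags between 184 and 329 CPM, and uncalled there. Rhob (chr12:8497661-8500009), a small GTPase of actin and endosomes, had 1079, 889, 860.1 and 959 CPM in mural-like cells, against 341 CPM (1.47), above every other hashtag. In dendritic-cell-like cells Rhob had 105, 87.6, 152 and 117 CPM, against 479.8 CPM (-2.08).

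Among the heat-shock genes, Hspa1a (chr17:34969190-34972156) had 202, 291, 173 and 215 CPM in mural-like cells, against 76.9 CPM elsewhere (log2 ratio 1.5), above every other hashtag. In T- or NK-cell-like cells Hspa1a had 22.3, 49.2, 44.7 and 45.7 CPM, against 107 CPM (-1.36), below every other hashtag, with a count in 39 of 404 cells. A pseudocount of 5 ended that lower call (-1.28). Hspa1b (chr17:34956436-34959238) was higher in fibroblast-like cells (39.3, 34.4, 41.0 and 35.9 CPM, against 13.6 CPM) and in mural-like cells (36.4, 33.7, 36.0 and 38.4 CPM, against 13.8 CPM), which overlapped each other and lay above all others. Macrophage-like cells had 4.20, 5.49, 4.5 and 6.28 CPM of Hspa1b, against 19.0 CPM (-1.68). The sum of both genes was 256 CPM in mural-like, 125 CPM in fibroblast-like, 84.0 CPM in macrophage-like and 46.0 CPM in T- or NK-cell-like cells, so mural-like cells stayed on top. The co-chaperone Dnajb1 (chr8:83608193-83612653) had 239.7, 217, 224 and 206 CPM in fibroblast-like cells, against 96.0 CPM (1.2), with its lowest hashtag at the threshold. That call ended under 5 alternatives at ratios of 1.07 to 1.24, and that for Hspa1b in fibroblast-like cells under 3 at 1.19 to 1.29. In macrophage-like cells Dnajb1 had 39.7, 36.0, 39.8 and 41.4 CPM, against 126 CPM (-1.66). Hsph1 (chr5:149614287-149636376) was distributed otherwise, with 62.0, 65.1, 54.1 and 62.4 CPM in macrophage-like cells, against 30.5 CPM, a log2 ratio of 0.97 that is uncalled and overlaps T- or NK-cell-like cells.

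By subset, the mean over the 29 early genes of log2(CPM + 1) was 7.55 in macrophage-like cells, with hashtags between 7.45 and 7.62, and 8.14 to 8.56 in the other classes, none of whose hashtags fell as low. The mean over the 4 heat-shock genes was 6.20 in mural-like and 6.04 in fibroblast-like cells and 5.06 to 5.41 in the other 5 classes. All mural- and fibroblast-like hashtags lay above all others on that mean. The order of classes differed between the subsets: T- or NK-cell-like cells had the highest early mean (8.56) and a heat-shock mean of 5.15. Hashtags lay close in the large classes, with a median of 1.17 times between the highest and lowest in fibroblast-like and 1.18 times in macrophage-like cells, and 1.46 to 1.57 times in mural-, endothelial-, dendritic-cell- and T- or NK-cell-like cells. In endothelial-like cells A0310 was the highest hashtag for 25 of 33 members, and in macrophage-like cells A0309 was the lowest for 22. The shares of all genes that do so were not computed, so these counts are not read as a trait of the members.

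**Figure D3:**
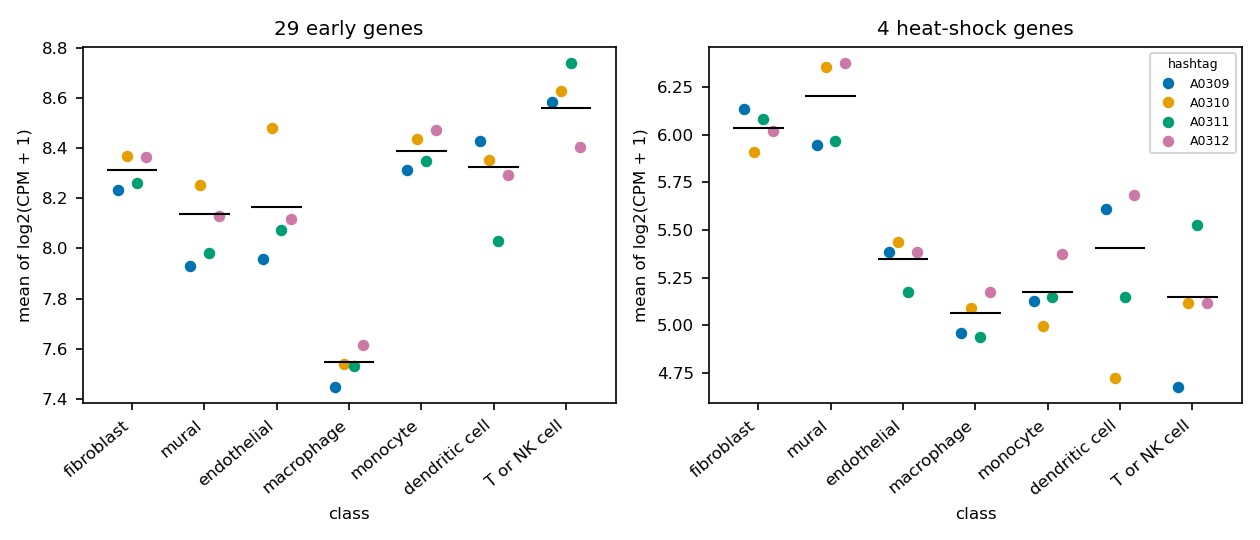
Mean of log2(CPM + 1) over the 29 early genes (left) and the 4 heat-shock genes (right) in each class; points are hashtags, black lines the pooled class, and the axes do not start at 0. Macrophage-like cells are lowest in the left panel (7.55) and mural- and fibroblast-like cells highest in the right (6.20 and 6.04).

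Within macrophage-like cells, clustered again without the members, early-gene levels differed between sub-clusters. Sub-cluster 3 held 1436 cells named MHC class II high-like and led by Ighm and Ciita. It had 16 members called higher (2.41% of all genes) and 1 lower (3.71%), the latter near the share of all genes. Fosb had 1700.2, 1926, 1908 and 2014 CPM there, against 587 CPM in the other macrophage-like cells (log2 ratio 1.71). Btg2 had 563, 627, 687 and 755 CPM, against 188 CPM (1.86), and Nr4a1 had 218, 221, 285 and 263 CPM, against 75.4 CPM (1.74). The other early genes called higher were Jun, Junb, Jund, Atf3, Maff, Egr1, Egr3, Klf2, Klf4, Klf6, Ier2 and Ier3, so AP-1, EGR, NR4A and KLF members all took part. Hspa1a was higher too, at 174, 184, 165 and 193 CPM, against 64.7 CPM, while Hsph1 was lower, at 14.7, 19.4, 21.0 and 25.8 CPM, against 66.1 CPM. The early mean was 1.18 above that of the rest on the log2 scale, and the heat-shock mean 0.32 above it, with hashtags between -0.09 and 0.42. Its median was 29846.5 counts per cell, against 41207 in the class, its median mitochondrial share 5.06%, against 4.71% in the class, and its summed fibroblast markers (2 of 7 at 0) 80.4 CPM, against 59.6 CPM in the rest; their part was not tested. Thinning ended the call of Hspa1a (1.33), and averaging cell by cell those of Ier3 (1.34) and Klf6 (1.12). The best match of this sub-cluster had a Jaccard index of 0.404 at Leiden resolution 2.0 and 0.398 under the stricter hashtag rule. Over all macrophage and fibroblast sub-clusters, 19 calls of members ended and 34 stayed at that resolution, and 20 ended and 33 stayed under that rule. Those calls were read in the best match of each sub-cluster, which under that rule had an index of 0.076 for fibroblast sub-cluster 4.

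Sub-cluster 11, 184 resident-like cells led by Cd209f and Lyve1, had 9 members higher (2.79% of all genes), Fosb, Jun, Egr1, Klf2, Klf4, Ier2, Ier3, Btg2 and Hspa1a, and 2 lower (2.45%), Dusp5 and Hsph1. Ier3, an early gene of cell survival, had 220.0, 153, 239 and 141 CPM, against 41.3 CPM in the rest (2.19). Of these 11 calls, 8 ended on averaging cell by cell, as Fosb at 0.93 and Btg2 at 0.71. Median depth in sub-cluster 11 was 21771 counts per cell, against 41207 over all macrophage-like cells, and the median mitochondrial share 5.39%, against 4.71%. Its summed monocyte markers (2 of 8 at 0) were 2122 CPM, against 274 CPM in the rest. That list holds F13a1, which is also among the leading genes of sub-cluster 11. The dendritic-cell markers (3 of 9 at 0) summed to 515 CPM there, against 107 CPM. The fibroblast markers (1 of 7 at 0) summed to 125 CPM, against 61.4 CPM. The part of these markers was not tested. Sub-cluster 6, 536 lipid-associated-like cells led by Mfge8 and Cd200, had 6 members lower (3.68%), Egr1, Egr3, Nr4a1, Ier2, Ier3 and Dusp2, and 0 higher (0.426%). At a median of 75983 counts per cell, its Ier2 was 38.1, 38.3, 39.5 and 52.6 CPM, against 146 CPM in the rest. Sub-cluster 2, also MHC class II high-like and led by Ciita, had 0 members higher (2.24%) and 3 lower (2.68%), Maff, Dusp5 and Hsph1. Sub-cluster 8 had Maff and Nfkbia lower (1.57%), with 0 higher (0.0382%). Under the stricter hashtag rule sub-clusters 2 and 8 had the same best match, with Jaccard indices of 0.242 and 0.183. The other 7 macrophage sub-clusters, 3 of them in DNA synthesis or mitosis, had 0 calls. In those, over all genes, 5.09% were higher and 0.599% lower in sub-cluster 0, 2.22% and 0.19% in 1, 0.252% and 2.88% in 4, 0.0389% and 2.22% in 5, 0.252% and 1.89% in 7, 0.204% and 1.74% in 9, and 1.45% and 0.663% in 10.

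Of 9 fibroblast-like sub-clusters, number 4 had members called higher. Its 441 cells, led by Rnd1, Hk2, Rgs16 and Il6 and left unnamed, had 9 members higher (0.388% of all genes) and 0 lower (0.556%). They were Fosb, Fosl2, Atf3, Maff, Egr2, Nr4a1, Nr4a3, Btg2 and Dnajb1. Fosb had 3209, 3383, 3326 and 3313 CPM, against 1341 CPM in the other fibroblast-like cells (log2 ratio 1.30). Atf3, a stress-induced repressor, had 2657, 2622, 2522 and 2843 CPM, against 964 CPM (1.46). Dnajb1 had 551, 497, 549 and 549 CPM, against 183 CPM (1.54). The other heat-shock genes were uncalled, with Hspa1a at 151 CPM, against 78.9 CPM, Hspa1b at 43.8 CPM, against 36.8 CPM, and Hsph1 at 21.6 CPM, against 23.8 CPM. The early mean was 0.96 above that of the rest and the heat-shock mean 0.64, in every hashtag with the same sign. Median depth was 31504 counts per cell, against 35510.5 in the class. The best match of this sub-cluster at Leiden resolution 2.0 had a Jaccard index of 0.245 with it, and there 7 of the 9 calls ended (Fosb 0.93, Nr4a1 0.89). Under the stricter hashtag rule, with 644 fibroblast-like cells, its best match had an index of 0.076. That match was also the best one of sub-clusters 0, 3 and 10. All 9 calls ended there, in a group that shares few cells with sub-cluster 4. Sub-cluster 1, led by Cldn15 and Fgf10, had Maff, Nr4a3 and Ier3 lower (1.28%), and sub-cluster 2, led by Tnc, had Atf3 lower (0.987%). The Dpp4-progenitor-like sub-cluster 6 had Nr4a2 lower (3.46%), which is near the share of all genes. Each of these sub-clusters had 0 higher (0.37%, 0.432% and 2.14%). The other 5 had 0 calls, where over all genes 0.427% were higher and 0.88% lower in sub-cluster 0, 0.487% and 0.931% in 3, 0.458% and 1.61% in 5, 1.2% and 1.04% in 8, and 6.49% and 10.3% in 10. Over all fibroblast sub-clusters 5 calls were lower, and 12 without A0309. The clustering left out the members and the wider lists but kept other genes, such as Il6, a leading gene of sub-cluster 4. Whether those genes vary with the members was not tested.

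**Figure D4:**
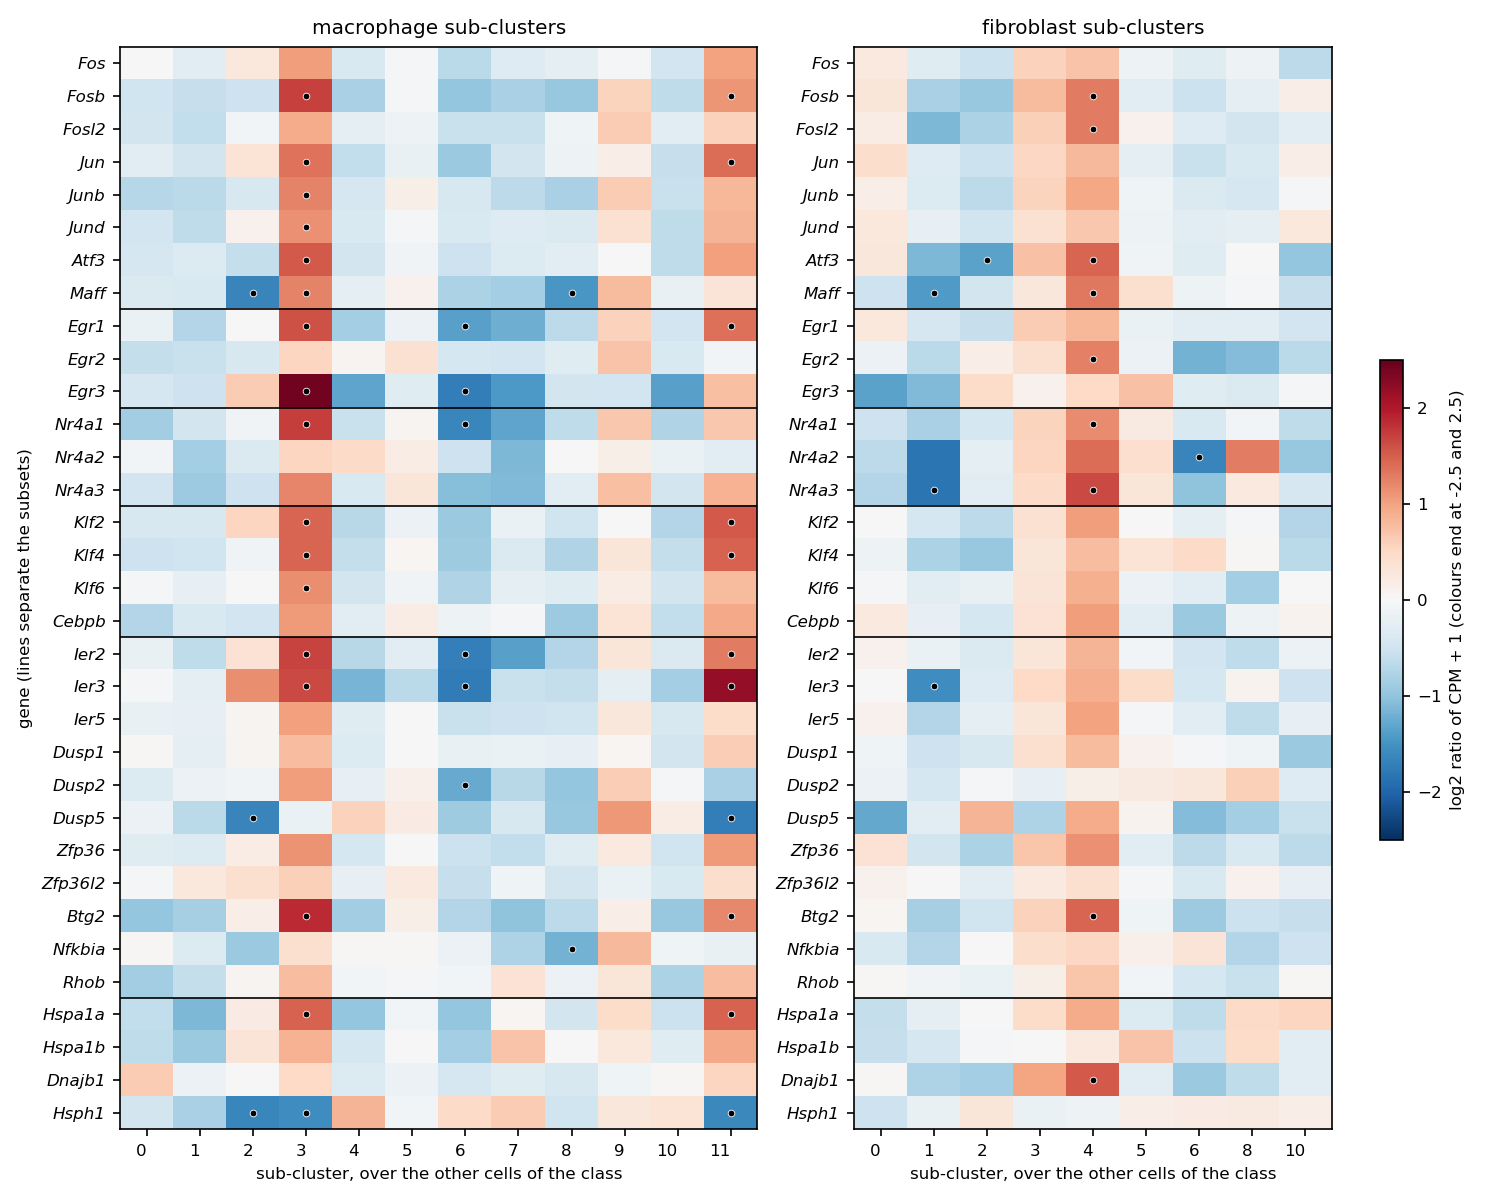
Log2 ratio of CPM + 1 of each member in each sub-cluster over the other cells of its class, for macrophage-like and fibroblast-like cells; dots mark calls. Macrophage sub-cluster 3 holds 16 higher calls and 1 lower, Hsph1, and fibroblast sub-cluster 4 holds 9 higher.

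Across single cells, the members with the highest correlations in fibroblast-like and macrophage-like cells were pairs of early genes. As a description over cells of 1 library, which share depth and library, the median Pearson's r over 406 pairs of early genes was 0.22 in 3402 fibroblast-like and 0.22 in 8061 macrophage-like cells. The heat-shock genes gave 6 pairs, with medians of 0.02 and 0.01. Some were sparse, as Hspa1b with a count in 14.2% of macrophage-like and Hsph1 in 26.3% of fibroblast-like cells. Dnajb1 was not, with a count in 65.2% of fibroblast-like cells. Some early genes were sparser, as Dusp2 in 2.32% of fibroblast-like and Nr4a3 in 6.86% of macrophage-like cells. With 6 pairs beside 406, the subsets are not compared. In fibroblast-like cells the closest pairs were Fosb with Zfp36 (0.77), Fosb with Atf3 (0.77) and Fos with Zfp36 (0.76), and in macrophage-like cells Fos with Dusp1 (0.73) and Fos with Zfp36 (0.73). The heat-shock gene nearest to early genes was Dnajb1 in fibroblast-like cells (0.43 with Atf3) and Hspa1a in macrophage-like cells (0.34 with Egr1 and with Fosb). Hspa1a and Hspa1b reached 0.35 with each other in macrophage-like cells, and Hsph1 with Jun stood at -0.16. The r of the early mean with counts per cell was 0.03 in fibroblast-like and -0.13 in macrophage-like cells. In sparse members, such as Hspa1b in macrophage-like cells or Nr4a2, with a count in 10.6% of fibroblast-like cells, a low r is no finding. The same holds for Hsph1 in fibroblast-like cells.

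**Figure D5:**
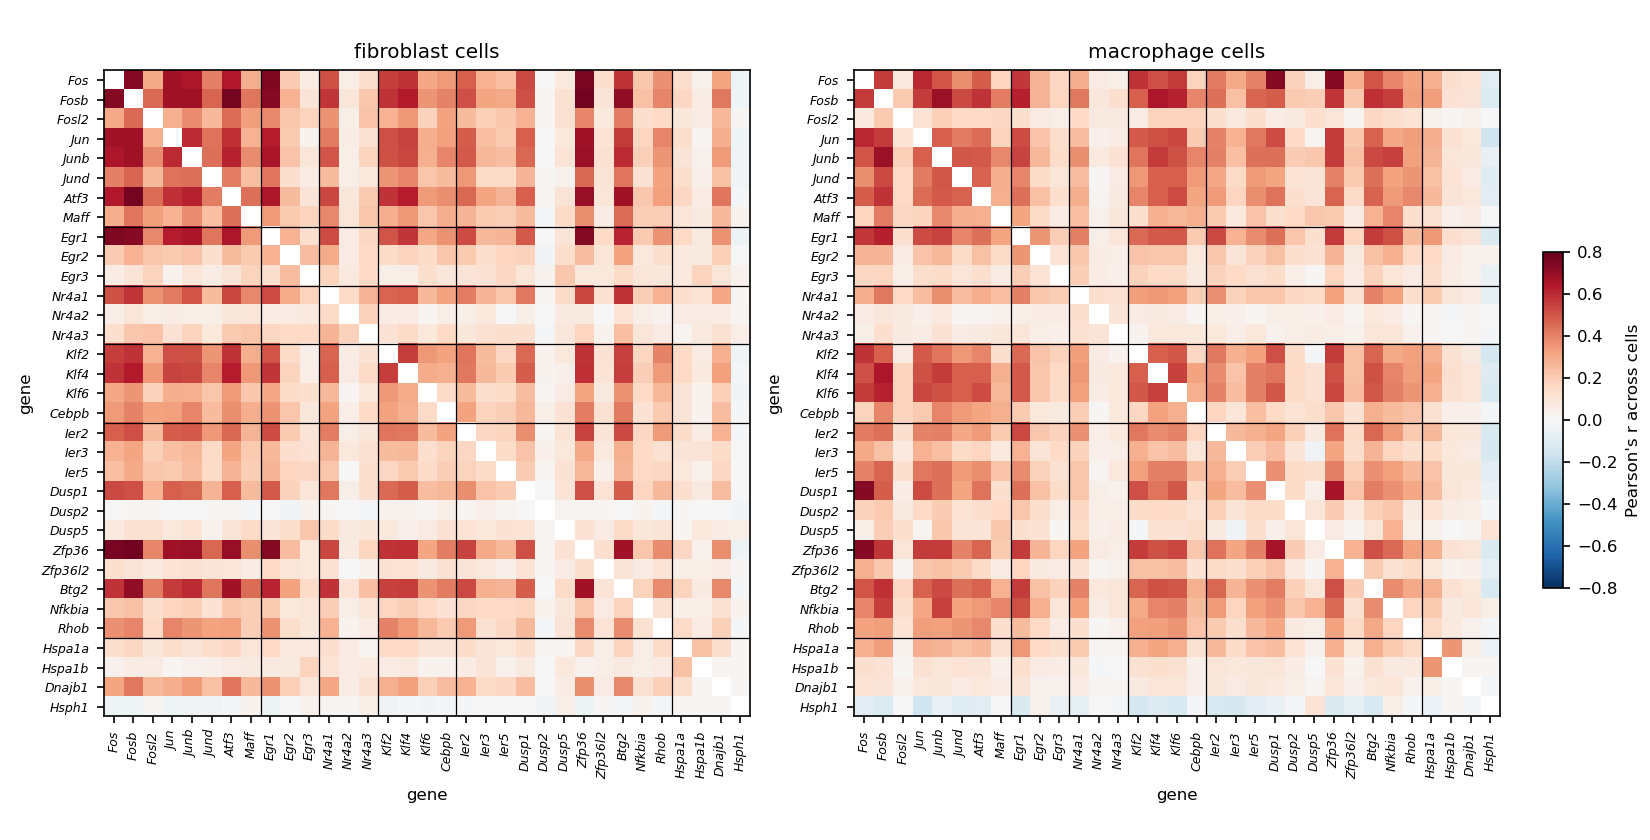
Pearson's r between members across 3402 fibroblast-like and 8061 macrophage-like cells; lines separate the subsets. The early block holds the highest values, up to 0.77 and 0.73.

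Wider lists of the same responses, which are no members, gave counts beside these. The lists too were chosen with earlier results of these data known, so their counts are no independent support. Of 32 other early genes, 0 were higher and 12 lower in macrophage-like cells (3.57% and 19.5% of all genes), among them Ccn1, a matricellular protein gene (3.03 CPM, against 151 CPM elsewhere), and Socs3, an inhibitor of cytokine signalling (76.7 CPM, against 406 CPM). Monocyte-like cells had 7 lower (14.7%) and dendritic-cell-like cells 10 lower (14.4%), each with 0 higher (2.33% and 3.21%). Ccn1 was lower in both, and in T- or NK-cell-like cells. Fibroblast-like cells had 8 higher (9.9% of all genes) and 5 lower, a share near the 16.6% of all genes. Socs3 stood there at 1137 CPM, against 229 CPM, and Myc at 204 CPM, against 39.4 CPM. In T- or NK-cell-like cells 1 was higher, near the share of all genes (4.57%), and 5 were lower (11.1%); the 1 was Tnfaip3, which encodes the NF-kappaB inhibitor A20, at 869.9 CPM, against 158 CPM. Of 21 other heat-shock genes, 0 were higher and 4 lower in macrophage-like cells, the lower ones at about the share of all genes (19.5%): the small heat-shock genes Hspb1, Hspb8 and Cryab, and the collagen chaperone gene Serpinh1, whose low values stand at 0 in the deposited table. The same 4 genes were lower in monocyte-like, dendritic-cell-like and T- or NK-cell-like cells too. Those classes had 4 (14.7% of all genes), 6 (14.4%) and 4 (11.1%) of the list lower, and 0 higher (2.33%, 3.21% and 4.57%). Mural-like cells had 3 higher (7.93% of all genes) and 0 lower (8.29%), with Cryab at 179 CPM, against 23.6 CPM. Macrophage sub-cluster 3 and fibroblast sub-cluster 4 each had 8 of the 32 other early genes higher (2.41% and 0.388% of all genes) and 0 lower, and 0 of the 21 other heat-shock genes higher. The mRNA-decay gene Zfp36l1 had the largest ratio in that macrophage sub-cluster (603 CPM, against 147 CPM in the rest) and Nfkbiz, which encodes a nuclear IkappaB protein, in that fibroblast sub-cluster (559 CPM, against 219 CPM in the rest). Of 10 endoplasmic reticulum stress genes, at most 1 was called in each direction in any class or sub-cluster.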

How the data were processed

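The authors deposited whole-number counts of 30084 genes in 15741 cells (transcripts) and whole-number counts of 15 hashtags; the sources used here do not say if reads or molecules were counted. Tools named in the submitters' processing notes, without their roles, are Bowtie2 2.4.2, cutadapt 3.4 and R 4.1.2 and 3.6.3, and the build is GRCm38. Cell names, per the file headers, hold a hashtag or mark a doublet: 15374 cells had a single hashtag and the 367 doublets were left out. Cells needed 200 genes and at most 25% mitochondrial counts. With scanpy 1.11.5, counts scaled to 10000 per cell, 2000 variable genes, 30 components, 20 neighbours and Leiden resolution 1.0 gave clusters, made without the members and the wider lists (96 genes). Names needed at least 3 markers; clusters led by 2 lineages or by another class were left out. Fibroblast-like and macrophage-like cells were re-clustered with the same settings, and each sub-cluster of at least 50 cells was set over the rest of its class. No member is among the genes whose low values were set to 0 in the deposited counts. Ratios are of CPM with a pseudocount of 1, which understates low genes. Summed counts give narrow counting error, but hashtags of unknown genotype and cells are not replicates, so no test was run. The call rule was tested on simulated counts drawn from 1 profile shared by all classes and hashtags, with changes planted in fibroblast-like cells. Those counts held no spread between hashtags beyond counting error, so they cannot give the rate of false calls here. The members and lists were chosen with earlier results of these data known. All 33 members may be named; those called in a class are given by hashtag. Of the wider lists, at most 4 called genes with the largest ratios may be named. Coordinates come from GENCODE vM21 (GRCm38). Alternatives were another pseudocount, hashtag rule, resolution, weighting, thinning to 6500 counts per cell, kept clusters and each hashtag left out.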

Additional observations from a re-analysis of the deposited data

How the results depend on the processing

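No called log2 ratio of a member changed sign under an alternative in which it could be computed. Calls in mural-like cells had no ratio under the stricter hashtag rule. Under that rule and at Leiden resolution 2.0, calls in sub-clusters were read in the best match. That match could share few cells, as for fibroblast sub-cluster 4 under that rule (Jaccard index 0.076). A pseudocount of 5 CPM gave 2 members higher in fibroblast-like cells, 1 lower in T- or NK-cell-like cells and 3 lower in fibroblast sub-clusters. The stricter hashtag rule (at least 10 tag counts, 75% from 1 hashtag) left 644 fibroblast-like cells and no mural-like class. The mean of the other classes under that rule thus lacks mural-like cells. It gave 1 higher in endothelial-like cells, 2 lower in monocyte-like cells and 1 higher in fibroblast sub-clusters. Leiden resolution 2.0 gave 1 higher and 3 lower in monocyte-like, 2 lower in dendritic-cell-like and 1 lower in T- or NK-cell-like cells, 27 lower in macrophage and 4 higher in fibroblast sub-clusters. The mean over cells gave 2 higher in fibroblast-like, 8 lower in mural-like, 1 higher and 1 lower in monocyte-like and 5 lower in T- or NK-cell-like cells, and 16 higher and 23 lower in macrophage sub-clusters. With clusters led by another class kept, fibroblast-like and endothelial-like cells each had 1 higher. Thinning gave 9 lower in mural-like and 5 lower in T- or NK-cell-like cells. The cause of these moves was not tested. Leaving out each hashtag in turn gave 2 to 5 lower in T- or NK-cell-like cells (5 without A0311), 0 to 1 lower in monocyte-like cells (1 without A0312), and 6 to 12 lower in fibroblast sub-clusters (12 without A0309), since fewer hashtags have to pass. With no filter on low CPM the share of all genes called was lower in all 7 classes, as in fibroblast-like cells at 12.9%, against 26.5% with it. No paired analysis was possible because the result comes from no test and no label pairs the hashtags.

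The data are 1 pooled library, so the values carry no error over animals and both genotypes are mixed in every class level that spans hashtags. Levels after digestion cannot be told apart from levels in the tissue, since no undigested sample was analysed here. Classes differ in depth per cell, and levels near 1 CPM, such as Dusp2 in fibroblast-like cells, rest on few counts.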
